A study of Mus musculus with 30 samples.

Results

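The mitochondrial ribosomal protein genes are the nuclear genes whose symbols begin with Mrpl or Mrps followed by a digit. They were taken from all 17097 genes with a probe set of their own, and 73 were found, 46 named for the large subunit (Mrpl) and 27 for the small subunit (Mrps). Where several probe sets carried one symbol, the brightest on average across all 30 arrays stood for the gene. Subunit names follow the symbol except where the structure is named: Mrps18a and Mrps30 sit in the large subunit, and Mrps36 belongs to the oxoglutarate dehydrogenase complex and to neither subunit, which gives 48 large-subunit and 24 small-subunit proteins by structure.

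Mitochondrial ribosomes translate the few messenger RNAs of the mitochondrial genome, which encode core subunits of the respiratory chain and of ATP synthase. Their RNAs are made in the mitochondrion, and all their proteins are encoded in the nucleus and imported, so that the particle draws on both genomes. ClpP, the proteolytic subunit of the ClpXP protease of the mitochondrial matrix, has been described as acting in the maturation of this ribosome, with the small-subunit assembly factor Eral1 as a known substrate.

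Transcript levels were compared in knockout mice (labelled ClpP KO) and wild-type littermates, both on a C57BL/6 background, in 5 tissues (testis, liver, skeletal muscle, brain, heart), with 3 arrays for each of the 10 groups. The values are log2 expression as normalized by the authors, so a difference of 1 is a doubling. The allele, the age and the sex of the mice, and whether replicates or tissues come from separate animals, are not given in the sources used here, and the p-values measure the spread between these samples. Clpp was lower on the knockout arrays in each tissue, by -3.23 ± 0.19 in testis and by between -4.82 and -5.56 elsewhere (log2, SE, n = 3 per genotype). Its knockout values, 2.93 to 3.99, lay near the array medians of 3.24 to 3.38, so these differences may understate the loss.

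Some arrays stood apart. The third wild-type testis array carried epididymal transcripts (median 10.7 over 3 epididymal markers, against at most 2.83 on the other testis arrays), and the first wild-type muscle array carried sperm transcripts (median 5.60 over 12 sperm markers, against at most 2.97 on the other muscle arrays). Fat-cell markers had a median of 8.03 and 9.28 on the second and the third knockout heart arrays, against 2.78 on the first knockout heart array and at most 3.29 on the wild-type heart arrays. The third wild-type brain array correlated with the other wild-type brain arrays at 0.976 to 0.977, which correlated with each other at 0.996. Marker lists had high medians in their wild-type tissue. The hepatocyte list had a median of 13.0 in knockout and 12.9 in wild-type livers, and the fast-fibre list 13.1 in knockout and in wild-type muscle. The neuron list had 10.8 in knockout and 11.1 in wild-type brains, and the cardiomyocyte list 12.4 in knockout and 11.8 in wild-type hearts. The sperm list had 7.27 in knockout and 12.0 in wild-type testes. Single markers were low in wild type, down to 3.27 in testis (sperm), 4.62 in brain (neuron) and 4.725 in heart (cardiomyocyte). Precision is limited by the 3 arrays per group, and 71 of the 73 genes averaged 6 or more over all arrays, as did 5168 genes in all, called the well-expressed genes below.

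The promoters of these genes were set beside the expression data because many of the 73 moved together in testis, while some moved the other way. The sequences run from 250 bases before to 50 bases after the annotated start (RefSeq, build GRCm38.p6), and 71 such windows were found for 65 of the 73 genes. They were searched on both strands for an NRF1-type motif (GCGC, any 2 bases, then GCGC), an ETS-type motif (CCGGAAG) and a YY1-type motif (the longer run of capitals in the Mrps18a window), motifs of factors known as regulators of nuclear genes for mitochondrial proteins. Capitals mark the matches, on either strand. Shown are Mrpl58 (chr11:115403502-115403801, plus strand), which rose most in knockout testes, Mrps36 (chr13:100744610-100744909, minus strand), which fell most there, Mrpl12 (chr11:120484387-120484686, plus strand), which also fell there, Mrps18a (chr17:46110754-46111053, plus strand), which fell in knockout livers, and the neighbours Mrps11 (chr7:78782881-78783180, plus strand) and Mrpl46 (chr7:78783040-78783339, minus strand), which start on opposite strands.
Mrpl58: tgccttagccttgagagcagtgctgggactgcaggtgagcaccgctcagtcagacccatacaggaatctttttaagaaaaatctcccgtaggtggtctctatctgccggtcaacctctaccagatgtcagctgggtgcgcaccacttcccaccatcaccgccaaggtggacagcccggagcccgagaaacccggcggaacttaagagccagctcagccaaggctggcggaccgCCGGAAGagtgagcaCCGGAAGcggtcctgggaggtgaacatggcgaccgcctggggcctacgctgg
Mrps36: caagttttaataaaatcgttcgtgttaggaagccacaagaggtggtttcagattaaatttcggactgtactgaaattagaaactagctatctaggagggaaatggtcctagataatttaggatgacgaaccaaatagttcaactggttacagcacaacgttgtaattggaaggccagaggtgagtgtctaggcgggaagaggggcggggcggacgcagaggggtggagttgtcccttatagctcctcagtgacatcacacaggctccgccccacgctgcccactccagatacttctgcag
Mrpl12: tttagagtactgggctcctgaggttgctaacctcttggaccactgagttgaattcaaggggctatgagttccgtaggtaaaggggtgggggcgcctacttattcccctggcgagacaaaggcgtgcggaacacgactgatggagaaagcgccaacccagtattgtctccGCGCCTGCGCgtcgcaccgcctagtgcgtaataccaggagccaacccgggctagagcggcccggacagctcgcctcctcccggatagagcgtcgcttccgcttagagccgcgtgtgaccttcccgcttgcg
Mrps18a: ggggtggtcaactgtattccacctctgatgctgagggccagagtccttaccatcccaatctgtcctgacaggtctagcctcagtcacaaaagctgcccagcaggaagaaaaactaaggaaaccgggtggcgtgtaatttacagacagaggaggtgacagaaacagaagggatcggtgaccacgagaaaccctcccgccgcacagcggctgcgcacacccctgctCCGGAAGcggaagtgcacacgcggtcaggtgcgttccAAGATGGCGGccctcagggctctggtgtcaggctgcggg
Mrps11: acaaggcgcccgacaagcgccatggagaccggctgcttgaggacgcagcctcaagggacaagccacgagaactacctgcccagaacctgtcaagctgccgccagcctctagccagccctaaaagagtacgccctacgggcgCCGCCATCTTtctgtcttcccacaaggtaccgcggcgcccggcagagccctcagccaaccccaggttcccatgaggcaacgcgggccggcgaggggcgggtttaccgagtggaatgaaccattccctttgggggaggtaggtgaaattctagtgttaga
Mrpl46: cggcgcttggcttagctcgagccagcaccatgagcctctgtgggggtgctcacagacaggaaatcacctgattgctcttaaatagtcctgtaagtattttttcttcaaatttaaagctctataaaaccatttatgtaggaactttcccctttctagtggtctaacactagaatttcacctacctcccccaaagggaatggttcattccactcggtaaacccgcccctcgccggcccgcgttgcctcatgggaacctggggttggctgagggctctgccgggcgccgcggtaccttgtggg

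The Mrpl58 window held 2 ETS-type motifs, that of Mrps18a 1 ETS-type and 1 YY1-type motif, that of Mrpl12 1 NRF1-type motif and that of Mrps11 1 YY1-type motif, whereas the windows of Mrps36 and Mrpl46 held none of the 3. Of the 71 windows, 32.4% held the ETS-type motif, against 8.86% of all 32851 promoters and 11.6% of those of protein-coding genes. The NRF1-type motif was in 18.3%, against 6.23% of all promoters and 8.57% of those of protein-coding genes. The YY1-type motif was in 7.04%, against 0.852% and 1.21%. At least 1 of the 3 was in 49.3% of the windows, against 14.5% of all promoters and 19.3% of those of protein-coding genes. Of 59 windows of cytosolic ribosomal protein genes, 52.5% held at least 1. Large-subunit and small-subunit windows held the ETS-type motif at 28.9% and 38.5%, and the NRF1-type motif at 22.2% and 11.5%. These shares are descriptions of letters in a window and were not tested.

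Wild-type tissues were compared first, since they set the level from which a change in the knockout is read. All 73 genes differed in level among the 5 wild-type tissues (limma, moderated F test with Benjamini-Hochberg adjustment), against 87.9% of all genes tested. So did 5151 of the 5168 well-expressed genes. Heart was the tissue with the highest mean for 43 of the 73 genes, against 17.1% of all genes, and muscle for 15 (15.6% of all genes), testis for 9 (27.9%), liver for 6 (19.7%) and brain for 0 (19.7%). The lowest mean was in testis for 36 genes and in brain for 29, against 27.5% and 34.9% of all genes, in liver for 8 (17.3%), and in muscle (12.5%) and heart (7.8%) for 0. Among the 5168 well-expressed genes, 19.1% were highest in heart, 41.6% lowest in testis and 20.3% lowest in brain.

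Against the mean of the other 4 wild-type tissues, 68 of the 73 genes were higher and 1 lower in heart, where 27.5% of all genes were called higher and 33.6% lower (61.1% either way). In muscle 60 were higher and 4 lower (26.3% and 37.4% of all genes, 63.7% either way), and in liver 29 and 21 (25.5% and 40.8%, 66.3% either way). In testis 13 were higher and 53 lower (32.1% and 40.7%, 72.8% either way), and in brain 3 were higher and 61 lower (28.1% and 46.5%, 74.7% either way). The median log2 difference of the 73 genes was 0.88 in heart, 0.58 in muscle, 0.07 in liver, -0.75 in testis and -0.76 in brain, and that of the well-expressed genes was 0.23, 0.26, -0.06, -0.62 and -0.11 in the same tissues. With the arrays centred on their medians, which moves the median of all genes to -0.56 in testis, -0.44 in brain, 0.18 in liver, 0.20 in muscle and 0.08 in heart, 46 were higher and 12 lower in liver and 6 and 60 in testis. The median kept its sign in each tissue under both other scalings.

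The medians of both subunits had the same sign in every tissue. Large-subunit and small-subunit medians of the same difference were 0.90 and 0.88 in heart, 0.57 and 0.61 in muscle, 0.06 and 0.18 in liver, -0.77 and -0.71 in testis, and -0.91 and -0.72 in brain. On the 3 wild-type brain arrays the large-subunit median minus the small-subunit median, relative to the 5 tissues, was -0.141, -0.153 and -0.075. The difference between the subunits was not tested. On single arrays the median of the 73 genes, relative to each gene's mean over the 5 wild-type tissues, lay between 0.59 and 0.77 in wild-type hearts and between 0.38 and 0.59 in wild-type muscles. It lay between 0.06 and 0.13 in wild-type livers, between -0.65 and -0.56 in wild-type testes and between -0.68 and -0.57 in wild-type brains. Testis and brain overlapped, heart and muscle met at their ends, and the other neighbours in this order were apart. Bulk tissue was measured, in which fewer cells of a type and less RNA per cell cannot be told apart.

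**Figure D1:**
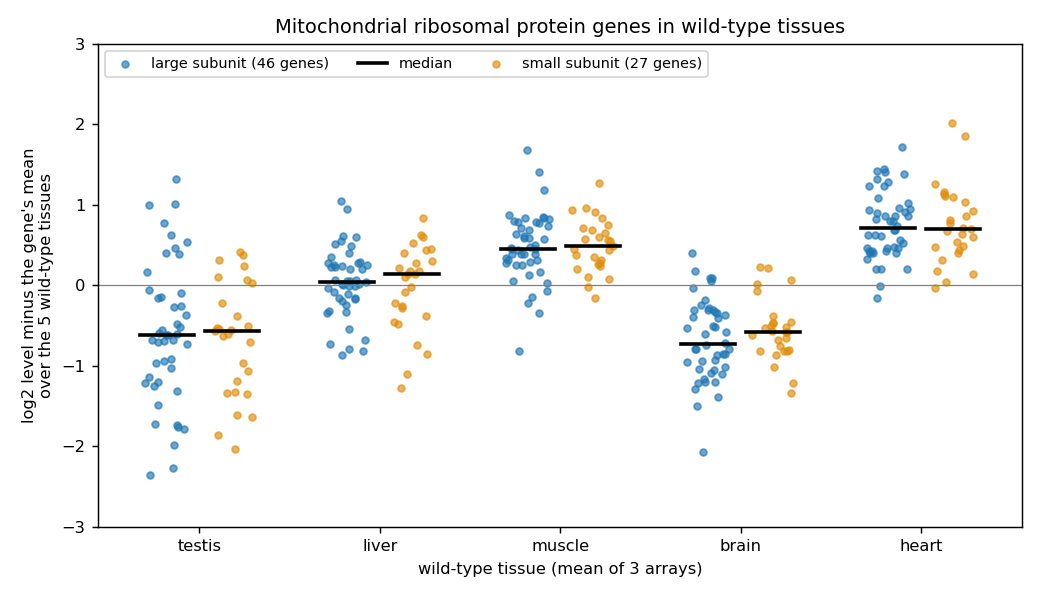
Log2 level in each wild-type tissue (mean of 3 arrays) minus the gene's own mean over the 5 wild-type tissues, for 46 large-subunit and 27 small-subunit genes. Each point is a gene and each black bar a median. Heart and muscle lie above 0 for most genes, and testis and brain below 0, in both subunits.

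Single genes differed widely in how far their level varied. The distance between the highest and the lowest wild-type tissue had a median of 1.91 over the 73 genes, ranging between 0.77 for Mrpl43 and 3.78 for Mrpl14, a 13.8-fold range. Mrpl14, a conserved protein of the large subunit's face toward the small subunit, read 5.58, 5.10 and 6.19 in wild-type testes. It read 9.0, 8.99 and 8.79 in wild-type livers, 9.07, 9.41 and 9.02 in muscles, 6.62, 6.71 and 7.02 in brains, and 9.48, 9.44 and 9.29 in hearts. Its testis arrays were the lowest of all 15, its brain arrays came next, and the other 3 tissues were close together.

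The genes with the smallest p for a difference among wild-type tissues were Mrpl42, Mrps21, Mrpl23, Mrps24 and Mrpl2. Mrpl42, a large-subunit protein with no counterpart in bacteria, had means of 11.40 ± 0.09 in muscle and 11.44 ± 0.10 in heart, against 7.74 ± 0.08 in testis (SD, n = 3 each; limma adjusted p = 1.06e-22). Liver and brain lay between, at 9.18 ± 0.09 and 8.86 ± 0.05. Mrpl23, a protein at the exit of the peptide tunnel, was likewise highest in both striated muscles, at 10.22 ± 0.05 in muscle and 10.06 ± 0.06 in heart, against 6.55 ± 0.34 in testis. Mrps21 and Mrps24 of the small subunit had their lowest means in testis too, at 6.82 ± 0.34 and 6.49 ± 0.25, against 9.95 ± 0.08 and 9.62 ± 0.06 in heart.

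A few genes ran against the common order. Mrpl39, Mrpl54 and Mrpl1 were higher in wild-type testis than in the mean of the other 4 wild-type tissues, by 1.65, 1.27 and 1.25 on the log2 scale. Mrpl39 is a large-subunit protein related to threonyl-tRNA synthetase, and it was lower in muscle, at -1.03. Mrpl41 and Mrpl44 were also lower in muscle, at -0.42 and -0.28. Mrps36 was lowest in liver, at -1.59, followed there by Mrps23 at -1.38 and Mrpl3 at -1.08, while Mrpl50, Mrpl14 and Mrps2 were the highest there, at 1.31, 1.19 and 1.05.

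In brain the largest negative differences were those of Mrpl1 (-2.59), Mrpl54 (-1.87) and Mrpl35 (-1.73). The 3 genes called higher in brain were Mrpl27 (0.50), Mrps33 (0.27) and Mrpl48 (0.22). Mrpl27 is the mitochondrial form of a protein near the peptidyl transferase centre. In heart, Mrps35 and Mrps23 were the furthest above, at 2.53 and 2.32, followed by Mrpl42, and Mrpl20, at -0.19, was the 1 gene called lower.

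In knockout testes 40 of the 73 genes rose and 7 fell (limma, Benjamini-Hochberg adjusted p below 0.05 over all genes), where 32.8% of all genes were called higher and 23.4% lower (56.2% either way). Of the 5168 well-expressed genes, 3251 rose and 883 fell. The median change of the 73 genes was 0.54 on the log2 scale, against 0.015 over all genes and 0.69 over the well-expressed genes, and it was 0.331 with the mean of all probe sets. Relative to the wild-type mean, the median of the 73 genes was 0.48, 0.59 and 0.46 on the 3 knockout arrays, against 0.03, -0.06 and 0.01 on the 3 wild-type arrays. All 3 knockout arrays lay above all 3 wild-type arrays for 42 of the genes and below them for 10, against 35.3% and 28.2% of all genes. Among the 5168 well-expressed genes these counts were 3291 above and 952 below.

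Cell-type markers moved in the same tissue. Of the markers of elongating spermatids and sperm 11 of 12 fell (median level 7.27 in knockout and 12.0 in wild-type testes), and 7 of 7 round-spermatid markers fell (6.31 in knockout and 10.3 in wild-type testes). Sertoli-cell markers rose for 8 of 8 genes (6.87 in knockout and 4.91 in wild-type testes), and Leydig-cell markers for 6 of 6 (9.65 in knockout and 7.77 in wild-type testes). The difference between 3′ and 5′ Gapdh control probe sets, a measure of RNA integrity, was 0.51 to 0.57 in knockout testes and 0.86 to 1.17 in wild-type testes. The part of these differences in the changes of the ribosomal genes was not tested.

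With the brightest probe set of each gene, the largest rise was that of Mrpl58, a release-factor-like peptidyl-tRNA hydrolase built into the large subunit. It read 8.06, 7.95 and 7.94 in knockout testes, against 6.43, 6.30 and 6.64 in wild-type testes, with no overlap. The change was 1.53 ± 0.10 (log2, SE, n = 3 per genotype; limma adjusted p = 2.33e-12), and it was between -0.12 and 0.28 in the other 4 tissues. A dim second probe set of Mrpl58 (mean 2.55) had a difference of -0.14 and was not called, and with the mean of both the change was 0.695, below that of Mrps17.

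Next came small-subunit genes. Mrps17, a conserved protein that binds the small-subunit RNA, read 9.31, 9.20 and 9.06 in knockout testes, against 7.84, 7.60 and 7.74 in wild-type testes (change 1.47 ± 0.10). Mrps24 read 7.86, 7.96 and 7.86 in knockout testes, against 6.36, 6.34 and 6.77 in wild-type testes (change 1.40 ± 0.12). Its probe set is of a kind that can match several transcripts, and the second such set for the gene gave 1.04. Mrps35 read 7.32, 7.26 and 7.12 in knockout testes, against 5.63, 5.81 and 6.11 in wild-type testes (change 1.38 ± 0.14).

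Of the other large-subunit genes, Mrpl49 changed by 1.21 ± 0.13, Mrpl44 by 1.20 ± 0.12, Mrpl14 by 1.19 ± 0.17 and Mrpl23 by 1.18 ± 0.13. Mrpl44 has a fold related to ribonuclease III. Of these 4, Mrpl14 varied most among wild-type testes, with an SD of 0.55, and its knockout values of 6.92, 6.83 and 6.70 still lay above the wild-type values of 5.58, 5.10 and 6.19. With the mean of its probe sets, the other one dim, Mrpl14 changed by 0.60. A second probe set of Mrpl49 had a difference of 0.36 (adjusted p = 0.0931) and was not called. Mrpl14, Mrpl23 and Mrps24 are among the genes furthest below the other tissues in wild-type testis, at -2.95, -2.83 and -2.54.

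The 7 genes that fell were Mrps36, Mrpl54, Mrpl1, Mrpl57, Mrps15, Mrpl12 and Mrpl30. Mrps36, which despite its symbol joins subunits of the oxoglutarate dehydrogenase complex, read 6.66, 6.68 and 6.74 in knockout testes, against 8.95, 8.57 and 8.64 in wild-type testes. Its change was -2.03 ± 0.11 (limma adjusted p = 5.59e-14), and it was between -0.16 and 0.14 in the other 4 tissues.

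Mrpl54 read 7.12, 7.15 and 7.33 in knockout testes, against 8.38, 7.75 and 8.37 in wild-type testes (change -0.96 ± 0.15). Mrpl57, a large-subunit protein specific to mitochondria, read 9.14, 9.03 and 9.22 in knockout testes, against 9.91, 9.96 and 9.86 in wild-type testes (change -0.78 ± 0.10). Mrpl12, a stalk protein that also binds the mitochondrial RNA polymerase, read 7.92, 7.91 and 8.07 in knockout testes, against 8.51, 8.20 and 8.36 in wild-type testes (change -0.39 ± 0.11). In each of these genes the groups were apart. Dim second probe sets of Mrpl54 and Mrpl57 (means 2.59 and 3.14) had differences of -0.02 and 0.12 and were not called, and with the mean of both sets the changes were -0.49 and -0.33, still called.

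The calls of the other 3 falls were lost or turned round under some alternatives. Mrpl1, the protein of the stalk beside the exit site, changed by -0.85 ± 0.16, with 6.35, 6.24 and 7.06 in knockout testes and 7.44, 7.44 and 7.33 in wild-type testes. Another Mrpl1 probe set rose by 0.81 (adjusted p = 0.000452), and with the mean of all its probe sets the change was 0.03 (adjusted p = 0.838; over all alternatives 4.25e-07 to 0.838). Mrps15 changed by -0.49 ± 0.12, a dimmer probe set of it rose by 0.32, and the mean of all 3 gave -0.14 (adjusted p = 0.216; over all alternatives 0.000187 to 0.216). Mrpl30 changed by -0.26 ± 0.10 (adjusted p = 0.0323) and was not called in 7 of 39 alternatives, among them the testis arrays fitted alone and those without the first or second knockout testis array or the first or second wild-type testis array (adjusted p = 0.0146 to 0.441 over all alternatives).

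**Figure D2:**
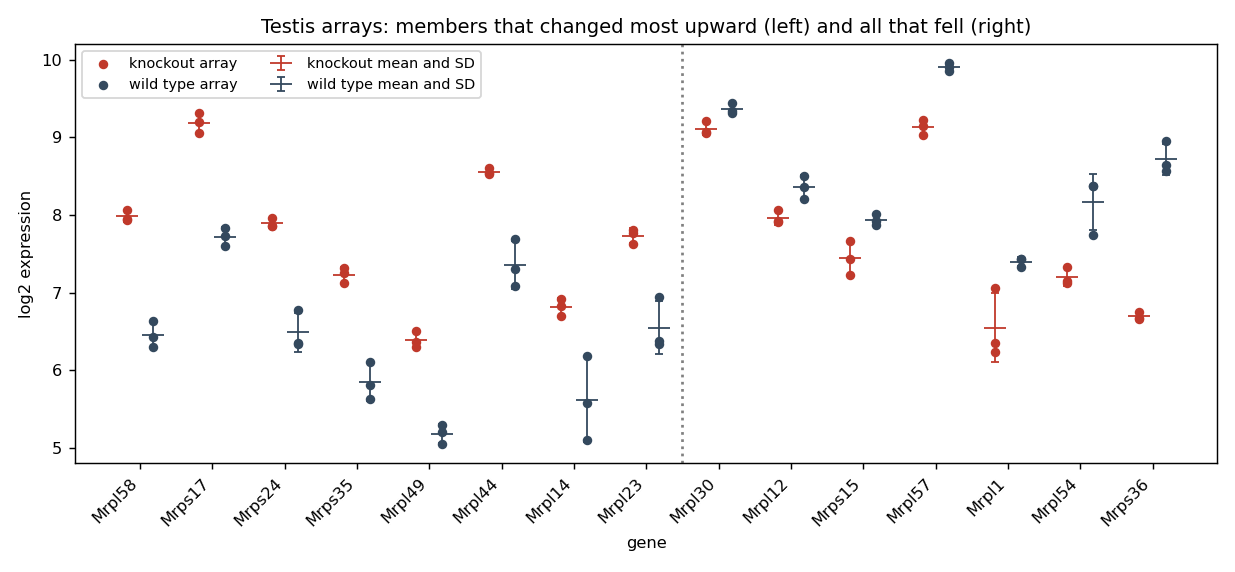
Log2 expression on the 3 knockout (left) and 3 wild-type (right) testis arrays for the 8 genes with the largest rises, left of the dotted line, and the 7 genes that fell. Points are arrays and bars are means with SD. The groups do not overlap for any of these 15 genes, and Mrpl14 has the widest spread in wild type, between 5.10 and 6.19.

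By subunit, 25 of 46 large-subunit genes rose and 5 fell in knockout testes, with a median change of 0.51, and 15 of 27 small-subunit genes rose and 2 fell, with a median change of 0.62. These are 54.3% and 55.6% called higher, against 32.8% of all genes and 62.9% of the well-expressed genes. The large-subunit median minus the small-subunit median was -0.109. It was -0.356 with subunits taken by structure, since Mrps18a, Mrps30 and Mrps36, which did not rise, then leave the small-subunit list, and -0.263 with the mean of all probe sets. On single arrays the same difference was -0.30, -0.28 and -0.17 in knockout testes, against -0.01, -0.02 and 0.00 in wild-type testes. No test of this difference was made.

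Of the genes with a particular place, Mrps18a and Mrps30, both in the large subunit by structure, had differences of -0.17 and -0.15 in testis and were not called. Nor were Mrps18b, one of the paralogues of the bacterial S18 protein, at -0.09, and Mrps12, a protein of the decoding centre, at -0.03. Mrps18c was not analysed here.

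The neighbours Mrps11 and Mrpl46, whose promoter windows share 141 bases on opposite strands, were looked at after their values had been seen. Mrps11 read 7.52, 7.59 and 7.54 in knockout testes, against 7.71, 7.35 and 7.60 in wild-type testes, a difference of 0.00 ± 0.11. Mrpl46 read 7.74, 8.30 and 8.27 in knockout testes, against 7.39, 7.45 and 7.41 in wild-type testes, a change of 0.69 ± 0.14 (limma adjusted p = 9.49e-05). The groups overlapped for Mrps11 and were apart for Mrpl46. The difference between the 2 genes was not tested.

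Among the promoter windows, those of genes that rose in testis held the ETS-type motif in 35.7% (of 42 windows), those of genes not called in 30.4% (of 23), and those of genes that fell in 16.7% (of 6). The NRF1-type motif was in 16.7%, 13.0% and 50% of the same windows, and the YY1-type motif in 2.38%, 17.4% and 0.0%. The window of Mrps36 printed above is among the 3 of the falling genes without any of the motifs. With 6 windows in the smallest set, these shares are given as counts of letters only.

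**Figure D3:**
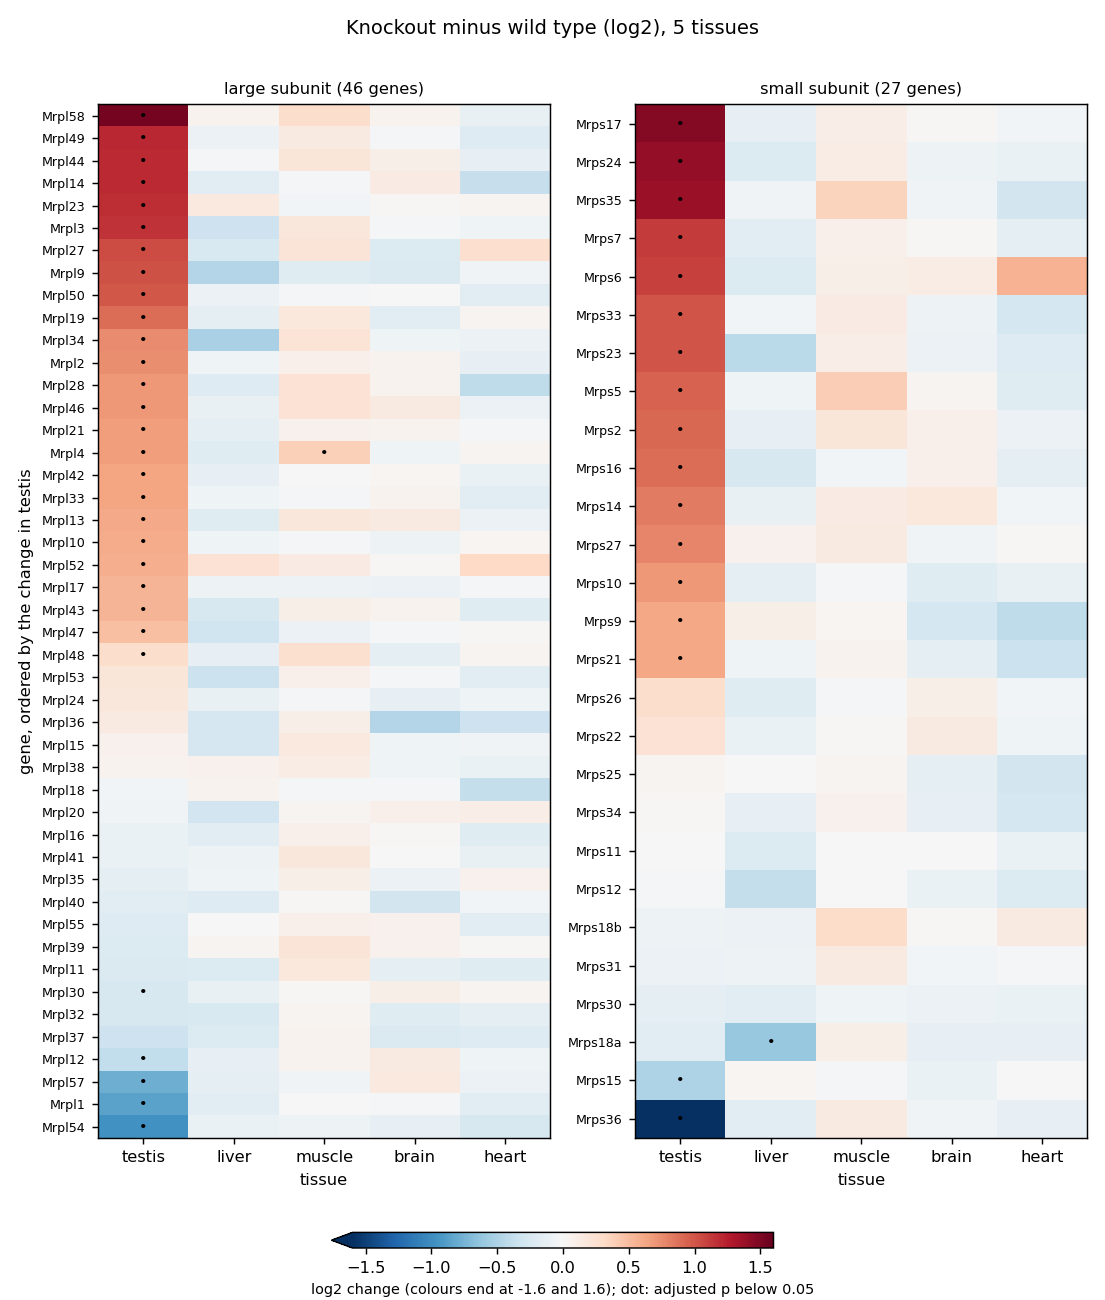
Log2 change, knockout minus wild type, of 46 large-subunit (left) and 27 small-subunit genes (right) in the 5 tissues, ordered by the change in testis. Red is higher in the knockout, blue lower, and a dot marks an adjusted p below 0.05. Dots fill the testis column, with 40 rises and 7 falls, and the other 4 columns hold 1 dot in liver (Mrps18a) and 1 in muscle (Mrpl4).

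In knockout livers 0 of the 73 genes rose and 1 fell, where 0.912% of all genes were called higher and 1.5% lower (2.42% either way). At an unadjusted limma p below 0.05, 11 of the 73 were lower and 1 higher. Of all 17097 genes 1328 were lower and 918 higher at that threshold, and of the 5168 well-expressed genes 682 and 302. The change was negative for 62 of the 73 genes (84.9%), against 50.2% of all genes and 57.9% of the well-expressed genes. The median change was -0.135, against -0.001 over all genes and -0.042 over the well-expressed genes. All knockout arrays lay below all wild-type arrays for 20 genes and above them for 1, against 8.8% and 7.9% of all genes. Among the 5168 well-expressed genes these counts were 730 below and 430 above.

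The gene that fell was Mrps18a, the large-subunit paralogue of the bacterial S18 protein. It read 6.82, 7.11 and 7.0 in knockout livers, against 7.55, 7.40 and 7.78 in wild-type livers, with no overlap. The change was -0.61 ± 0.12 (log2, SE, n = 3 per genotype; limma adjusted p = 0.00565), a level 0.66 times that of wild type. With the liver arrays fitted alone its adjusted p was 0.186 (0.00322 to 0.186 over all alternatives). In the other tissues its differences lay between -0.17 and 0.10 and were not called, and the difference of its change among the 4 tissues other than testis had an adjusted p of 0.123.

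Mrpl9 and Mrpl34, with the next smallest p in liver, and Mrps12 of the decoding centre did not pass the test. Mrpl34, whose bacterial counterpart is among the smallest ribosomal proteins, read 7.40, 7.80 and 7.90 in knockout livers, against 8.19, 8.05 and 8.40 in wild-type livers (-0.51 ± 0.15, adjusted p = 0.0819). Mrpl9 read 6.51, 7.16 and 7.29 in knockout livers, against 7.54, 7.39 and 7.43 in wild-type livers (-0.47 ± 0.14, adjusted p = 0.0806). Mrps12 read 7.59, 8.19 and 8.21 in knockout livers, against 8.25, 8.25 and 8.63 in wild-type livers (-0.38 ± 0.13, adjusted p = 0.139). For all 3 the groups were apart and the first knockout array was the lowest.

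That array also had the largest 3′ to 5′ differences of the liver arrays. They were 1.66, 0.99 and 0.86 for Gapdh on the knockout arrays, against 0.94, 1.03 and 0.77 on the wild-type arrays, and for actin 2.39, 2.05 and 1.79 on the knockout arrays, against 1.69, 1.77 and 1.67 on the wild-type arrays. The median deviation of the 73 genes was -0.17, -0.10 and -0.10 on the same knockout arrays, against -0.02, -0.01 and 0.03 on the wild-type arrays. Without the first knockout array the median change was -0.098. Without the third, 5 genes were called lower, Mrpl9, Mrpl43, Mrpl53, Mrps18a and Mrps23, and without the first wild-type muscle array 2 were, Mrps18a and Mrpl34. The part of RNA integrity in these changes was not tested.

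In knockout muscle 1 gene rose and 0 fell, where 0.778% of all genes were called higher and 0.76% lower (1.54% either way). At an unadjusted limma p below 0.05, 7 of the 73 were higher and 0 lower. Of all 17097 genes 1009 were higher and 1173 lower at that threshold, and of the 5168 well-expressed genes 229 and 465. The change was positive for 54 genes (74.0%), against 49.5% of all genes and 40.2% of the well-expressed genes. The median was 0.085, against -0.002 over all genes and -0.044 over the well-expressed genes. It was 0.033 without the first wild-type muscle array, the one with sperm transcripts, and 0.127 without the second. All knockout arrays lay above all wild-type arrays for 10 genes and below them for 0, against 9.36% and 10.0% of all genes. Among the 5168 well-expressed genes these counts were 408 above and 786 below. The slow-fibre markers rose for 5 of 5 genes in the same muscles (median level 10.6 in knockout and 5.92 in wild-type muscle), and their part in these changes was not tested.

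Mrpl4, a conserved protein lining the peptide tunnel of the large subunit, was the gene called. It read 8.65, 8.75 and 8.56 in knockout muscles, against 8.18, 8.40 and 8.23 in wild-type muscles, a change of 0.38 ± 0.10 (adjusted p = 0.0473). The groups were apart, yet the call was lost in 27 of 39 alternatives (adjusted p = 0.0286 to 0.261). Of the 30 fits without 1 array, 8 kept it, those without the first or the third knockout testis, the first knockout liver, the second wild-type muscle, the third wild-type brain or any 1 of the knockout heart arrays. Mrps5 was next, with 7.22, 7.13 and 7.04 in knockout muscles, against 6.64, 6.98 and 6.58 in wild-type muscles (0.40 ± 0.14, adjusted p = 0.170). The median deviation of the 73 genes was -0.12 on the first wild-type muscle array, which carried sperm transcripts, and 0.08 and 0.03 on the other wild-type arrays, against 0.06 to 0.11 on the knockout arrays. The second wild-type muscle array thus lay within the knockout range.

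In knockout brains 0 of the 73 genes were called by limma, where 0.415% of all genes were (0.234% higher, 0.181% lower). At an unadjusted limma p below 0.05, 4 of the 73 were lower and 0 higher. Of all 17097 genes 774 were lower and 579 higher at that threshold, and of the 5168 well-expressed genes 229 and 211. The median change was -0.028, against 0.016 over all genes, and it was 0.000 after quantile normalization and 0.019 after median centring, so that its sign depends on the scaling. Mrpl36, a small zinc-binding protein of the large subunit, read 5.96, 5.89 and 5.76 in knockout brains, against 6.21, 6.35 and 6.47 in wild-type brains (-0.47 ± 0.13, adjusted p = 0.143). All knockout arrays lay below all wild-type arrays for 11 genes and above them for 5, against 6.62% and 9.18% of all genes. Among the 5168 well-expressed genes these counts were 454 below and 438 above.

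In knockout hearts 0 genes were called by limma, where 2.18% of all genes were (1.11% higher, 1.07% lower). At an unadjusted limma p below 0.05, 10 of the 73 were lower and 3 higher. Of all 17097 genes 1343 were lower and 1018 higher at that threshold, and of the 5168 well-expressed genes 637 and 259. The change was negative for 58 genes (79.5%), against 52.6% of all genes and 64.7% of the well-expressed genes. The median was -0.105, against -0.011 over all genes and -0.076 over the well-expressed genes. All knockout arrays lay below all wild-type arrays for 10 genes and above them for 2, against 11.6% and 7.73% of all genes. Among the 5168 well-expressed genes these counts were 1029 below and 342 above. The smallest p was that of Mrpl18, a protein bound to the large-subunit RNA, with 8.91, 8.47 and 8.72 in knockout hearts, against 8.92, 9.15 and 9.17 in wild-type hearts (-0.38 ± 0.11, adjusted p = 0.0822).

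The knockout hearts differed among themselves. The median deviation of the 73 genes was 0.03 on the first knockout array and -0.17 and -0.13 on the second and the third, which carried the fat-cell markers, against -0.05, 0.03 and 0.03 on the wild-type arrays. Without the first knockout array 5 genes were called, Mrpl18, Mrpl28, Mrpl36 and Mrps25 lower and Mrps6 higher. Without the third wild-type testis array Mrps21 was called, and without the third wild-type heart array Mrpl28. Mrps6, a small-subunit protein, read 8.40, 9.35 and 9.05 in knockout hearts, against 8.31, 8.39 and 8.41 in wild-type hearts, so that the arrays with fat-cell markers were the high ones. The second and the third knockout heart arrays were also the highest for the 4 measured cardiomyocyte markers (Tnnt2, Tnni3, Nppa and Myl7), with medians of 12.9 and 13.0. The first knockout array had 11.1 and the wild-type arrays 11.3 to 12.0. The lowest single marker of this list averaged 9.67 in knockout and 4.725 in wild-type hearts, the highest 13.1 and 13.2, and 0 of the 4 were called by limma. Macrophage markers had medians of 6.07 and 6.61 on the second and the third knockout arrays, against 5.61 on the first and 5.39 to 5.64 in wild type. Mrps6 was singled out after its values had been seen, and the part of fat cells or of the other cell types was not tested.

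**Figure D4:**
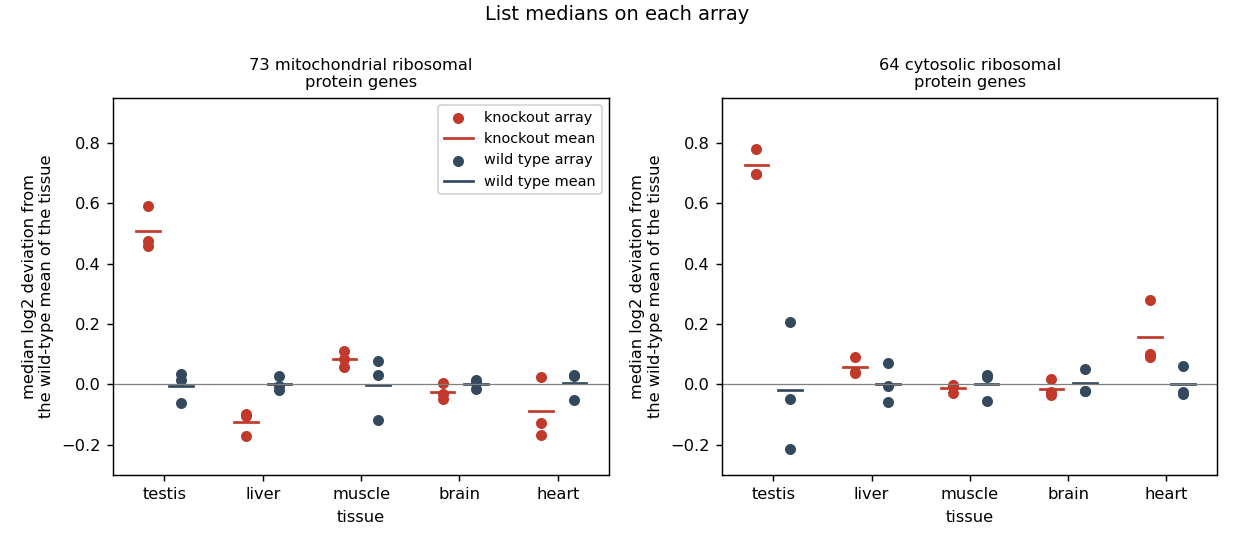
Median log2 deviation of 73 mitochondrial (left panel) and 64 cytosolic (right panel) ribosomal protein genes from each gene's wild-type mean in the same tissue, with knockout arrays to the left of wild-type arrays. Points are arrays and bars their means. In testis both lists lie above 0 on the knockout arrays, and in liver and on 2 of 3 heart arrays the mitochondrial list lies below 0 while the cytosolic list lies above it. The scale is that of a difference.

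Over the 4 tissues other than testis 0 genes rose and 1 fell on average, where 1.47% of all genes were called higher and 2.55% lower (4.02% either way). At an unadjusted limma p below 0.05, 10 of the 73 were lower and 1 higher. Of all 17097 genes 1862 were lower and 1253 higher at that threshold, and of the 5168 well-expressed genes 943 and 297. The gene called was Mrpl36, at a mean change of -0.25 ± 0.06 (log2, SE, adjusted p = 0.0268), made up of -0.27 in liver, 0.09 in muscle, -0.47 in brain and -0.34 in heart. It was not called without the third wild-type muscle array or without the third knockout brain array, nor after quantile normalization or with a replicate block (adjusted p = 0.0604; 0.00345 to 0.0604 over all alternatives). Averaged over all 5 tissues, 20 genes rose and 9 fell, against 17.1% and 16.5% of all genes (33.6% either way). Of the well-expressed genes 34.5% rose and 13.4% fell in the same average.

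The change differed among the 5 tissues for 46 of the 73 genes, against 52.3% of all genes and 3802 of the 5168 well-expressed genes. The smallest p were those of Mrps36, Mrps17, Mrpl58, Mrps24 and Mrpl27. Among the 4 tissues other than testis the change differed for 0 of the 73 genes by the same limma test. This compares with 1.66% of all genes and 93 of the well-expressed genes. An unadjusted p below 0.05 was found for 11 of the 73, against 2393 of all 17097 genes and 826 of the 5168 well-expressed genes. Mrpl27 came nearest (adjusted p = 0.0568), with differences of -0.25 ± 0.10 in liver, 0.21 ± 0.10 in muscle, -0.22 ± 0.10 in brain and 0.27 ± 0.10 in heart. In muscle it read 9.22, 9.21 and 9.21 in knockout mice, against 8.86, 9.15 and 9.01 in wild-type mice. In brain it read 9.05, 8.95 and 9.16 in knockout mice, against 9.19, 9.28 and 9.35 in wild-type mice, and in heart 9.76, 9.56 and 9.53 in knockout mice, against 9.34, 9.39 and 9.30 in wild-type mice. The groups were apart in these 3 tissues and overlapped in liver. Mrpl4 (adjusted p = 0.0945), Mrps18a (0.123), Mrpl28 (0.146) and Mrpl13 (0.239) followed.

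**Figure D5:**
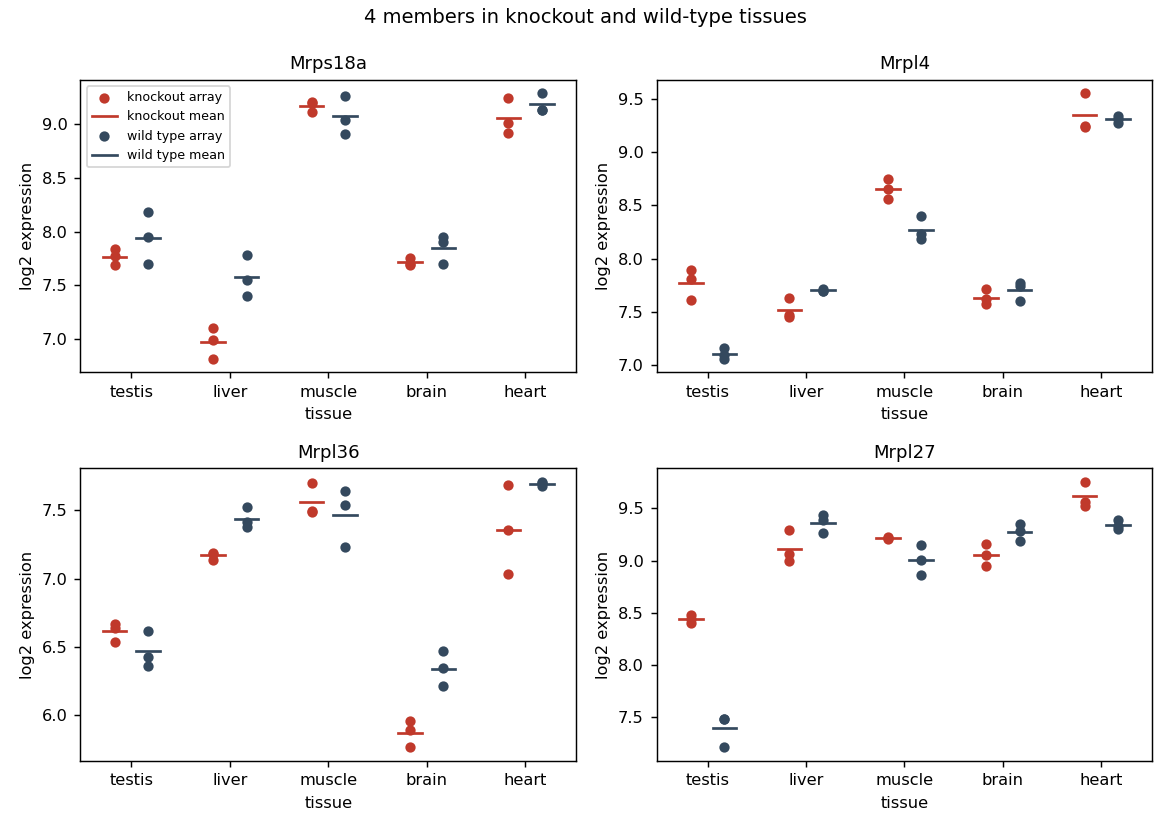
Log2 expression of Mrps18a, Mrpl4, Mrpl36 and Mrpl27 in 5 tissues, with knockout arrays to the left of wild-type arrays and bars for means. Mrps18a is lower in knockout liver, Mrpl4 higher in knockout muscle, Mrpl36 lower in knockout brain, and Mrpl27 lower in knockout brain and higher in knockout muscle and heart, with groups apart in each case, although of these the test called only Mrps18a in liver and Mrpl4 in muscle. In liver the groups are also apart for Mrpl4 and Mrpl36, both lower in the knockout and not called. In testis the groups are apart for Mrpl4 and Mrpl27.

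Chromosome 17, which carries Clpp, holds 8 of the 73 genes: Mrpl18, Mrps34, Mrpl28, Mrps18b, Mrpl14, Mrps18a, Mrpl2 and Mrps10. They are given apart because they share a chromosome with the targeted gene. In liver 7 of the 8 changes were negative, with a median of -0.144, against a median of -0.135 over the 65 genes on other chromosomes. The 1 gene called lower in liver, Mrps18a, is among the 8, and 0 of the 65 were called there by limma, against 1.5% of all genes called lower. A link of this fall to the place of Clpp was not tested. In heart 7 of 8 were negative with a median of -0.204, against -0.098, and in testis 4 of the 8 rose and 0 fell, namely Mrpl14, Mrpl2, Mrpl28 and Mrps10, against 36 and 7 of the 65 and 32.8% and 23.4% of all genes.

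Partners of the mitochondrial ribosome were described from lists of known genes. Of 4 measured subunits under other symbols 3 rose in knockout testes, where 32.8% of all genes and 62.9% of the well-expressed genes rose. They were Chchd1 (0.58 ± 0.10) and Ptcd3 (0.55 ± 0.09) of the small subunit and Gadd45gip1 (0.54 ± 0.13) of the large subunit. Dap3, a GTP-binding protein of the small subunit, read 9.88, 10.07 and 10.17 in knockout testes, against 10.22, 10.34 and 10.09 in wild-type testes and was not called. In the other tissues 0 of the 4 were called by limma, with 1 at an unadjusted p below 0.05 in each of liver, brain and heart and 2 in muscle. The counts of all genes at that threshold are given above for each tissue.

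Of 22 measured genes for assembly of the ribosome and modification of its RNA, 13 rose and 6 fell in knockout testes (59.1% and 27.3%), against 32.8% and 23.4% of all genes and 62.9% and 17.1% of the well-expressed genes. Nsun4, a methyltransferase of the small-subunit RNA that also works in assembly, read 6.08, 5.80 and 6.36 in knockout testes, against 9.91, 9.68 and 9.62 in wild-type testes (-3.66 ± 0.17). Tfb1m, which dimethylates the same RNA, changed by -1.33 ± 0.13. Rbfa, a small-subunit assembly factor, read 7.88, 7.96 and 7.68 in knockout testes, against 6.46, 6.46 and 6.41 in wild-type testes (1.39 ± 0.12). Mrm1, a methyltransferase of the large-subunit RNA, changed by 1.10 ± 0.16, and Malsu1, which binds Mrpl14, by 1.08 ± 0.11. These genes thus moved in both directions, in the same testes in which the spermatid markers fell.

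Eral1, the chaperone of the small-subunit RNA named above as a ClpP substrate, read 6.60, 6.44 and 6.47 in knockout testes, against 5.75, 5.58 and 5.66 in wild-type testes (0.84 ± 0.15, limma adjusted p = 2.00e-05). The median change of the well-expressed genes in testis was 0.69. Eral1 was not called in the other tissues. Its transcript was measured, and its protein was not. In liver 1 of the 22 genes fell, Noa1, a GTPase of small-subunit assembly. It read 5.12, 5.45 and 5.39 in knockout livers, against 5.99, 6.09 and 5.77 in wild-type livers (-0.63 ± 0.13, adjusted p = 0.00487). In heart 1 fell, Rcc1l, with 5.76, 5.35 and 5.49 in knockout hearts, against 6.19, 6.15 and 5.94 in wild-type hearts (-0.56 ± 0.14, adjusted p = 0.0263). Both sets of groups were apart.

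Of 10 measured mitochondrial translation factors 7 rose and 1 fell in knockout testes (70.0% and 10.0%), against the same 62.9% and 17.1% of the well-expressed genes and 32.8% and 23.4% of all genes. The fall was that of Mrrf, the ribosome recycling factor, with 6.64, 6.66 and 6.92 in knockout testes, against 8.43, 8.30 and 8.23 in wild-type testes (-1.59 ± 0.12). Lrpprc, a stabilizer of mitochondrial messenger RNA, rose by 0.99 ± 0.12, Mtfmt, which formylates the initiator methionine, by 0.95 ± 0.19, Guf1 by 0.84 ± 0.18, and Tsfm, the nucleotide exchange factor of the elongation factor Tu, by 0.79 ± 0.11. In liver all 10 changes were negative (median -0.128) and 0 were called by limma or had an unadjusted p below 0.05.

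The 64 cytosolic ribosomal protein genes served as the nearest comparison. In knockout testes 58 of them (90.6%) rose and 0 fell. Of all genes 32.8% rose and 23.4% fell there, and of the well-expressed genes 62.9% and 17.1%. The median change of the cytosolic list was 0.75, against 0.54 for the mitochondrial list and 0.69 for the well-expressed genes. In liver 47 of 64 cytosolic changes were positive with a median of 0.06, against 11 of 73 and -0.135 for the mitochondrial list. In heart 61 of 64 were positive with a median of 0.15, against 15 of 73 and -0.105. In muscle the order was the other way, with 29 of 64 positive and a median of -0.005, against 54 of 73 and 0.085, and in brain the medians were 0.001 and -0.028. Of the cytosolic genes 1 was called in heart, Rpl3 of the large subunit (0.67 ± 0.17, adjusted p = 0.0294), and 0 were called in liver by limma. In liver 4 of the 64 had an unadjusted p below 0.05, against 2246 of all 17097 genes. The difference between the lists was not tested.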

How the data were processed

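RNA of 30 tissue samples was measured on Affymetrix expression arrays with biotin-labelled RNA, per the labels' protocols. The deposited values are log2 expression per probe set, made by the authors with RMA in R 2.14.0, per the submitters' processing notes; whether all arrays were processed together is not given in the sources used here. Values ran between 1.73 and 14.1 and array medians between 3.24 and 3.38, and no further normalization was applied. Of 45141 probe sets, 28898 had 1 gene symbol, and the brightest set on average stood for each of 17097 genes.

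A linear model on 10 group means was fitted to every gene (limma 3.58.1, R 4.3.3; 20 residual degrees of freedom, default prior). The two-sided p-values were adjusted by Benjamini-Hochberg within each contrast, and 0.05 was the threshold for a call. The fit was tested on simulated data. SEs come from this fit, which pools the spread over groups. Chromosomes came from a RefSeq table of GRCm38.p6, which held the gene identifiers of all 73 members.

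The members, lists, motifs and tests were chosen with earlier results of these data known. Named are the 8 largest called rises and falls in testis, the 5 largest in each other tissue and in the mean over 4 tissues, the 5 smallest p for each difference among tissues, the 3 called furthest above and below in each wild-type tissue, the members with a particular place or on the chromosome of Clpp, and up to 5 called genes per partner list and tissue; others are given as next in order.

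Alternatives were a block for the replicate number, a random block for the presumed animal, each tissue alone, quantile normalization, median centring, a trended robust prior, dim genes left out, the mean of all probe sets, subunits by structure and each array left out. Leaving out the 2 arrays with epididymal or sperm transcripts was added after seeing the data. The numbers gave no pairing of the arrays: the correlation of deviations was -0.127 to 0.243 and did not exceed 0.1 for every pair in any tissue.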

Additional observations from a re-analysis of the deposited data

Results flagged for a closer look

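The knockout change differed among the 5 tissues for the following genes (limma, moderated F test, adjusted over all genes). The adjusted p was 6.27e-11 for Mrps36, whose difference was -2.03 in testis and -0.16 to 0.14 elsewhere. It was 1.58e-09 for Mrps17 (1.47 in testis, -0.13 to 0.11 elsewhere), 2.53e-09 for Mrpl58 (1.53 in testis, -0.12 to 0.28 elsewhere) and 2.22e-08 for Mrps24 (1.40 in testis, -0.22 to 0.12 elsewhere). It was 1.08e-07 for Mrpl27, with 1.05 in testis, 0.21 and 0.27 in muscle and heart, and -0.25 and -0.22 in liver and brain.

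The median change of the 73 genes was 0.543 in testis and 0.085 in muscle, above 0 on all 3 knockout arrays of each, and -0.135 in liver, below 0 on all 3 knockout arrays. The difference between these tissues was not tested for the list, and 1 of 3 wild-type muscle arrays lay within the knockout range.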

How the results depend on the processing

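The count in testis stayed between 45 and 48 called genes when single arrays were left out, that of a difference among 5 tissues between 41 and 48, that of a wild-type difference at 73 and that in brain at 0. The counts in liver ranged from 1 to 5, in muscle from 0 to 1, in heart from 0 to 5, in the mean over 4 tissues from 0 to 3, and for a difference among 4 tissues from 0 to 1 (Mrpl27 without the second wild-type testis, first knockout liver or second wild-type muscle array, Mrpl4 without the first knockout heart array). The mean over 4 tissues held 0 calls without the third wild-type muscle or the third knockout brain array, 3 without the first knockout heart array, and 2 without the first or second wild-type testis, the second or the third knockout liver or the first knockout muscle array.

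With the mean of all probe sets 2 genes were called in liver, 1 in heart and 2 in the mean over 4 tissues, the testis median was 0.331, large minus small was -0.263 in testis, and Mrpl1 in testis turned to 0.0327. With a tissue fitted alone 0 were called in liver and 0 in muscle. Muscle had 0 calls under the replicate block, median centring, the trended prior and without the 2 arrays that stood apart, where heart had 1. The mean over 4 tissues had 0 calls under the replicate block and after quantile normalization, 2 with dim genes left out and 29 over 5 tissues. The difference among 4 tissues had 1 call with the trended prior. Subunits by structure gave -0.356 for large minus small in testis. The liver median was -0.087 after quantile normalization, and the brain median 0.000 after it and 0.019 after centring. The replicate block left 45 calls in testis and 42 for a difference among 5 tissues, and apart from muscle and the mean over 4 tissues it moved no count of calls by over 1.5 times. Where not stated above, the cause was not tested.

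Without single arrays the median change ranged from 0.506 to 0.561 in testis, -0.162 to -0.098 in liver, 0.033 to 0.127 in muscle, -0.039 to -0.002 in brain and -0.163 to -0.072 in heart. Large minus small ranged from -0.235 to -0.109 in testis, -0.034 to 0.015 in liver and in muscle, 0.000 to 0.057 in brain and -0.013 to 0.053 in heart.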
